A study of Mus musculus with 20 samples.

Results

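Long-term starvation of wild type PyMT cells was examined in 6 of the 20 RNA-seq samples of the series. By title, 3 libraries were WT-1%FCS-LT, cells kept for 12 weeks in low serum, and 3 were WT-1%FCS, cells kept there for 10 days. They are called long-term and short-term starved cells here. Both groups were wild type (Ctsd+/+) tumor cells that became immortal in culture without a further manipulation, starting from a breast tumor of a mouse carrying the MMTV-PyMT transgene, in which a mammary promoter drives a viral oncogene. Both grew in DMEM/F12 with 1% FCS, L-glutamine and antibiotics, so that time in this medium was the labelled difference in treatment. The other samples were 6 libraries of Ctsd-deficient cells under the same 2 conditions and 8 tumors. The paper calls its replicates independent experiments. A single line per genotype was used, so that the p-values measure the spread between experiments on that line. How the wild type cells themselves changed between 10 days and 12 weeks was the question.

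Reads assigned to genes numbered 35392894, 36703548 and 37942237 in short-term replicates 1 to 3 and 37603299, 37359605 and 39593037 in the long-term ones. Short-term replicates 2 and 3 and long-term replicates 1 and 2 carry the same code in their descriptions, read here as the sequencing run. The remaining short-term and long-term libraries carry 2 other codes, so counts within the shared run, 2 libraries against 2, are given beside the pooled ones. Signs of RNA quality moved with time in the medium. Mitochondrial genes took 1.84, 2.21 and 1.86% of reads in short-term and 3.15, 4.41 and 3.62% in long-term starved cells, reads matching several places numbered 4.57, 5.09 and 5.31% against 6.27, 7.05 and 6.58%, and genes with a count 18888, 18927 and 19362 against 19614, 21088 and 21679. Their part in the results was not tested.

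Cathepsin D was looked at before other genes, because Ctsd-deficient cells share the fit. Ctsd stood at 4199, 2858 and 1267 counts per 1000000 reads (CPM, scaled with the normalised library size) in short-term and 1627, 1667 and 1895 in long-term starved wild type cells, against 192, 141 and 131 and 123, 114 and 151 in the Ctsd-deficient libraries. Every wild type library lay above every Ctsd-deficient one, as its label says. Between the wild type groups Ctsd overlapped and was not called (log2 fold change −0.68 ± 0.327, adjusted p = 0.109). This value depended on single libraries, since Ctsd was called lower without short-term replicate 3 (−1.03, adjusted p = 0.00188) and stood at −0.26 without short-term replicate 1 and −0.32 within the shared run.

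Epithelial cells hold together through keratin filaments, desmosomes and junctions, and have an apical and a basal side. Mesenchymal cells lack these contacts, carry vimentin filaments, secrete collagen-rich matrix and move as single cells. In carcinoma cells a small set of transcription factors, among them the ZEB and SNAIL repressors of the E-cadherin gene Cdh1, shifts cells to the mesenchymal side, and the reverse passage is called a mesenchymal-to-epithelial transition. Serum carries growth factors and lipids, so that low serum limits growth signals and nutrients at once.

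After 12 weeks the expression of the wild type cells had moved far toward the epithelial side. Of 15178 genes tested, 1673 were called higher (11.0%) and 1872 lower (12.3%) than after 10 days, 3545 in all (23.4%), where a gene is called if its adjusted p is under 0.05 and its fold change, up or down, is over 1 on the log2 scale. These shares over all genes, 11.0% and 12.3%, are to be set beside the counts called in each list below. Groups did not overlap in 1628 of the genes called higher and 1814 of those called lower. Over all 15178 genes, called or not, they did not overlap in 4150 that were higher and 3995 that were lower in long-term starved cells. Lack of overlap alone was thus common. Within the shared run 1635 genes were called higher and 1833 lower. The median log2 fold change over all genes tested was 0.00, with quartiles of −0.48 and 0.46. The first principal component of the 6 libraries held 81% of their variance and separated the groups. Large changes were common, with 466 called genes above a log2 fold change of 3 and 678 below −3.

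**Figure D1:**
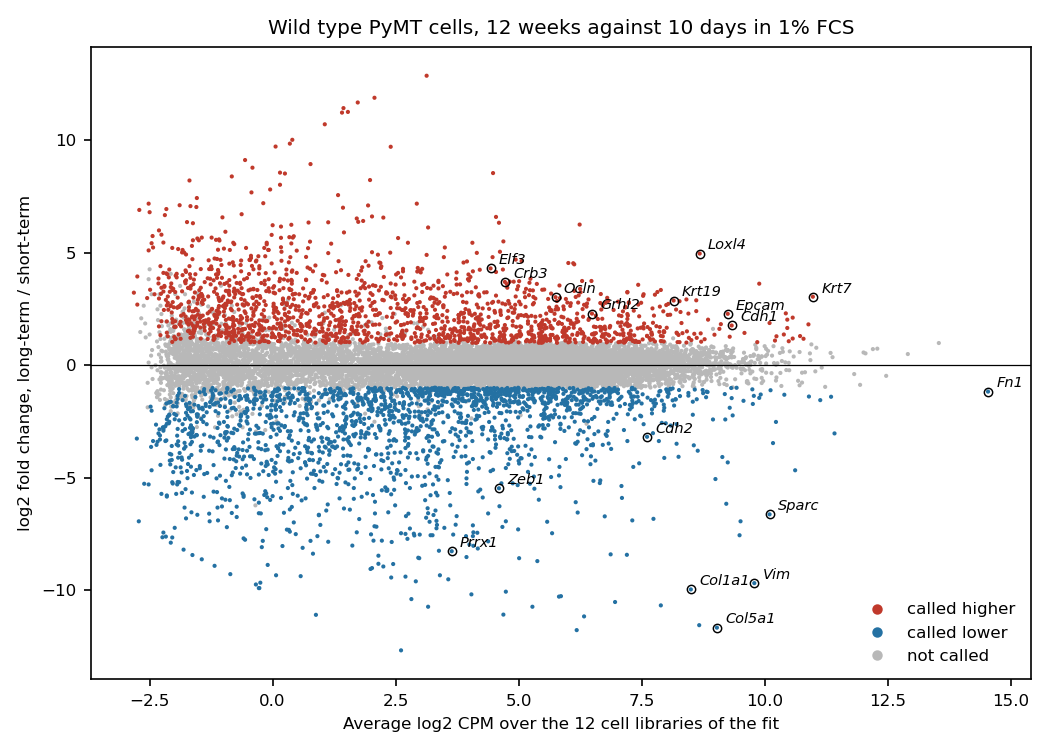
Log2 fold change of long-term against short-term starved wild type cells (vertical axis) against average log2 CPM (horizontal axis) for the 15178 genes tested, 1 point per gene. Genes called higher (1673) and lower (1872) are coloured, and members of the junction and mesenchymal programs are named. The most extreme fitted values belong to genes with almost no reads in one group.

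Markers of luminal breast epithelium were checked first. Of 14 luminal markers 12 passed the filter on low counts, with 9 called higher and 1 lower (median log2 fold change 2.05), and 9 higher and 1 lower within the shared run. Their summed level was 1164, 1786 and 2243 CPM in short-term and 6282, 5952 and 6433 CPM in long-term starved cells, and every marker had reads. Krt18, a keratin of simple epithelia, was the most abundant of them at 261, 411 and 464 CPM against 1421, 1303 and 1276 CPM, without overlap (log2 fold change 1.82 ± 0.211, adjusted p = 3.53e-05). Luminal markers were thus present in both groups, whose labels give a breast tumor as the origin. Gata3, a transcription factor of the luminal lineage, was the member called lower, at 144, 77.7 and 78.5 CPM against 32.5, 32.1 and 43.1 CPM.

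Other cell types that a primary tumor culture could hold were checked in the same way. Fibroblast markers summed to 1179.7, 3311 and 1673 CPM in short-term and 3.19, 4.37 and 8.62 CPM in long-term starved cells, with Col1a1, a chain of type I collagen, the most abundant. Only 6 of these 14 markers could be tested, 5 of them called lower and none higher by edgeR (0 higher at an unadjusted p under 0.05, and 0 called higher by limma-voom and DESeq2, and 5 lower within the shared run), while Thy1 and Dpt had no read in any of the 6 libraries and Lum, Fap and Pi16 had at most 3. Fewer cells of a type and less RNA per cell cannot be told apart in such bulk samples, and the part of these markers in the matrix results below was not tested. Endothelial markers stood at 90.2, 53.5 and 33.7 CPM against 2.62, 4.16 and 4.08 CPM in sum, led by the VEGF receptor gene Flt1, with 2 of 6 tested members higher (1 without short-term replicate 2 or long-term replicate 3) and 3 lower (1 and 2 within the shared run), Cldn5 at 0 and Cdh5 and Emcn at most at 3 counts. Called members went both ways, with log2 fold changes of −7.60 for Flt1 and 5.19 for Vwf. Pericyte markers summed to 1200.2, 1386 and 737 CPM against 592, 450.1 and 409 CPM, with 1 of 6 higher, 3 lower (1 and 3 within the shared run), the adhesion gene Mcam the most abundant and Higd1b at 0.

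Myoepithelial markers stood at 127, 200.5 and 140.1 CPM against 186, 179 and 121 CPM in sum, with 1 of 10 tested members higher (0 without short-term replicate 2 or 3) and 3 lower, the same counts as within the shared run. Lgr6, a receptor for R-spondins, was the most abundant of them and was not called, and none of the 12 was at 0 throughout. Krt14, a keratin of the basal layer, ranged over 37.3, 45.3 and 32.4 CPM and 75.9, 65.9 and 17.6 CPM, which overlap. Its partner Krt5 was nearly absent, with 1, 4 and 1 counts against 8, 0 and 8. Leukocyte markers were low, at 19.1, 23.2 and 28.2 CPM against 76.5, 87.8 and 95.9 CPM in sum, with 2 of 4 tested members higher, 2 within the shared run as well. Most of the long-term sum was Csf1r, the receptor for macrophage colony-stimulating factor, at 2.399, 5.13 and 11.7 CPM against 53.04, 54.5 and 58.2 CPM. Ptprc, the other marker called higher, had a log2 fold change of 5.22, while Tyrobp had no read and Adgre1, Cd3e and Laptm5 had at most 3. Adipocyte markers summed to 11.7, 8.88 and 11.04 and 33.3, 34.7 and 35.8 CPM, most of it the lipase gene Lipe, with 2 of 3 higher (2 within the shared run), Plin1 and Cfd at 0 and Adipoq, Fabp4, Lep, Retn and Cidec at most at 3 counts. Schwann and neural markers summed to 425, 644 and 408 against 116, 112 and 85.5 CPM, with the adhesion molecule Ncam1 the most abundant, 1 of 6 tested members higher, 2 lower (2 and 2 within the shared run) and Sox10 and Elavl3 at most at 3 counts.

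Keratins form the intermediate filaments of epithelia. Of 10 keratin genes tested 5 were called higher and 1 lower (median 1.26; 4 and 0 within the shared run). The lower count was 0 without long-term replicate 2 or 3 and 2 without any 1 of the 6 Ctsd-deficient libraries. Krt7 stood at 84.7, 256 and 381 CPM in short-term and 2305, 1928 and 1753 CPM in long-term starved cells. All long-term libraries lay above all short-term ones, and short-term replicate 1 was lowest (log2 fold change 3.05 ± 0.436, adjusted p = 0.00016). Krt19 rose from 37.5, 33.6 and 58.3 CPM to 280.4, 359 and 312 CPM, again without overlap (2.88 ± 0.282, adjusted p = 9.88e-06). Krt8, which pairs with Krt18, stood at 217, 493 and 766 CPM against 1199, 1299.9 and 1134 CPM, 2.46-fold higher in the mean and without overlap. Its call depended on the fold threshold, since its log2 fold change was 0.94 without short-term replicate 1 and 0.99 within the shared run. Krt80, a keratin of differentiating epithelia found near desmosomes, rose from 5.22, 20.6 and 46.6 CPM to 143, 141 and 120.0 CPM.

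Vimentin is the intermediate filament of mesenchymal cells, and its gene went the other way. Vim stood at 2749.9, 2968 and 3481 CPM in short-term and 3.03, 0.906 and 7.17 CPM in long-term starved cells (log2 fold change −9.69 ± 1.14, adjusted p = 3.76e-05). Mean CPM was 828-fold lower after 12 weeks, and no long-term library held over 7.17 CPM. Per kilobase of exon, Vim was at 646 RPKM (CPM divided by exon length in kilobases) in short-term starved cells, above Krt8 at 251 and Krt18 at 264 RPKM. After 12 weeks the order was reversed, with Krt8 at 618, Krt18 at 928 and Vim at 0.781 RPKM.

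**Figure D2:**
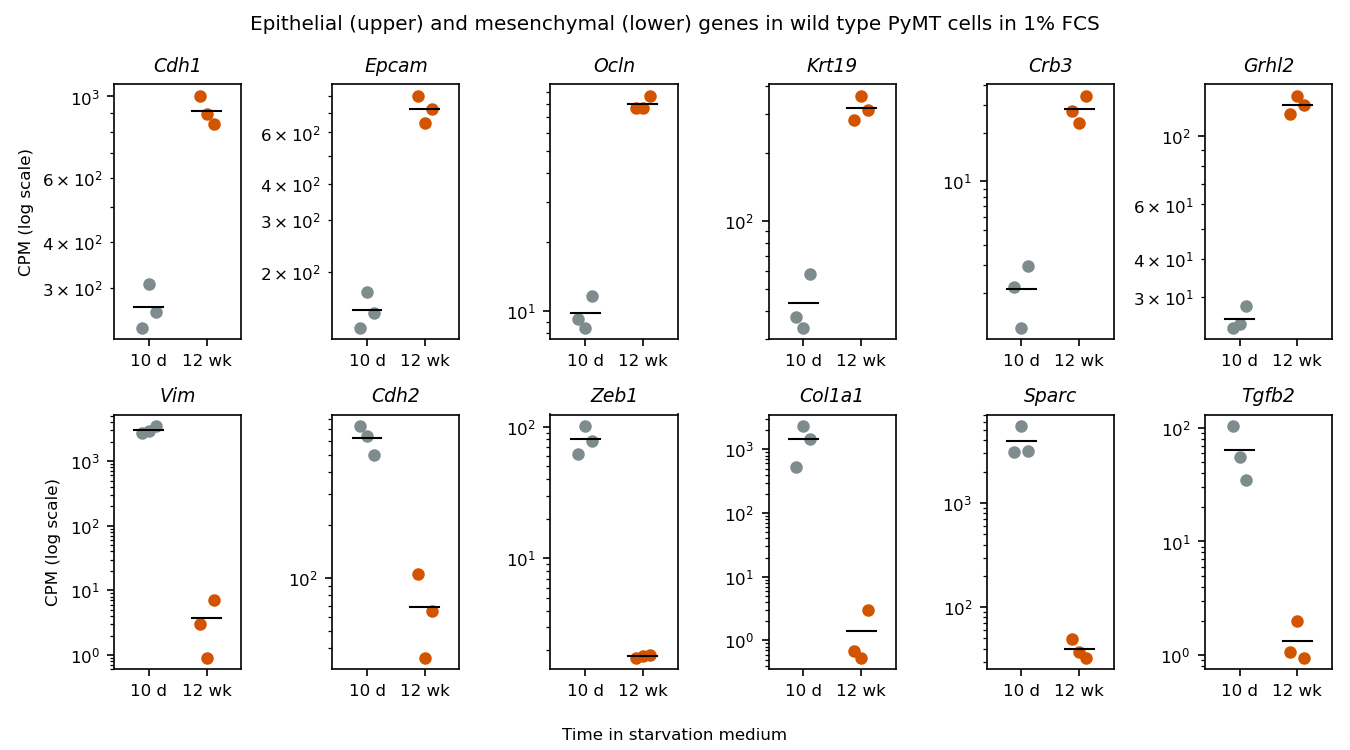
CPM on a log scale (vertical axis) of 12 genes in each library of short-term and long-term starved wild type cells, 1 point per library and a bar at each group mean. The upper panels hold epithelial genes, where all long-term points lie above all short-term points, and the lower panels mesenchymal genes, where they lie below.

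Desmosomes rivet neighbouring epithelial cells together and anchor keratin. Of 11 desmosome genes tested 7 were called higher and none lower (median 1.59; 9 and 0 within the shared run). At an unadjusted p under 0.05 edgeR had 1 lower, and limma-voom and DESeq2 called 0. Dsp, the desmoplakin gene, rose from 116, 105 and 102 CPM to 587, 702 and 507 CPM (2.48 ± 0.153, adjusted p = 3.66e-07). The plakins Ppl and Evpl, which link desmosomes to the cornified envelope in skin, rose as well, with log2 fold changes of 3.58 ± 0.15 and 3.36 ± 0.278. Dsg3, a desmosomal cadherin, stood at 2.79, 0.947 and 0.523 CPM against 16.3, 17.1 and 17.9 CPM, a change in the same direction from a lower base. For each of these genes the groups did not overlap.

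Adherens and tight junctions close the space between epithelial cells. Of 26 junction genes tested 16 were called higher and 2 lower (median 1.76), the same counts as within the shared run. Cdh1, which encodes E-cadherin, stood at 234, 308 and 259 CPM against 1002, 896 and 841 CPM, without overlap (1.77 ± 0.137, adjusted p = 1.77e-06). Epcam, an adhesion molecule of epithelial surfaces, rose from 128, 171 and 145 CPM to 799.5, 648 and 722 CPM (2.29 ± 0.138). Ocln, the tight junction strand protein occludin, rose from 9.21, 8.46 and 11.7 CPM to 77.2, 76.8 and 86.6 CPM (3.03 ± 0.133, adjusted p = 7.23e-08). The libraries of each group stood close together for these genes, and the gap between groups was wider than the spread within either. Among the claudins, which set how tight the seal is, Cldn3 was the most changed luminal marker (2.89 ± 0.158), at 54.7, 54.8 and 75.5 CPM against 468, 405 and 503 CPM. Tjp3, a scaffold beneath tight junctions, rose from 0.12, 0.0611 and 0.0523 CPM to 0.73, 2.48 and 1.699 CPM, and Cldn8 from 0.18, 0.0305 and 0.0262 CPM to 0.892, 1.36 and 0.786 CPM.

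Apical and basal membranes are kept apart by polarity complexes and by Rab GTPases that route vesicles. Of 17 such genes tested 13 were called higher and 1 lower (median 1.95; 13 and 1 within the shared run). Crb3, the Crumbs protein that marks the apical membrane, rose from 2.19, 1.22 and 2.98 CPM to 27.3, 23.1 and 33.9 CPM (3.71 ± 0.314, adjusted p = 3.21e-06). Rab17, a Rab of polarised epithelia, rose from 0.78, 0.336 and 0.445 CPM to 4.95, 6.63 and 9.05 CPM. Both genes were low in every short-term library and higher in every long-term one. The member called lower was Sytl2, a Rab27 effector in secretion, at 7.26, 4.28 and 4.74 CPM against 0.216, 0.586 and 0.279 CPM. Rab25 and Ap1m2, the latter an adaptor for basolateral sorting, were chosen after their values were seen, with log2 fold changes of 3.17 ± 0.167 and 2.62 ± 0.113.

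Epithelial cells also carry serine proteases on their surface together with Kunitz-type inhibitors. Of 14 genes of this list 11 were called higher and none lower (median 2.41; 12 and 0 within the shared run). By edgeR 0 were lower at an unadjusted p under 0.05, and limma-voom and DESeq2 called 0 lower. Tmprss2 rose from 3.39, 4.73 and 4.82 CPM to 63.5, 70.7 and 38.99 CPM (3.74 ± 0.438), and Tmprss11e from 1.11, 10.99 and 12.3 CPM to 75.5, 111 and 144 CPM (3.75 ± 0.708). Tmprss4 had no read in any short-term library and 24, 74 and 29 counts in the long-term ones, at least 12.2-fold higher against a floor of 3 counts per library, or 7.55-fold without long-term replicate 2. Such floors, and the 95% counting intervals below, cover counting error only. Spint2, an inhibitor of these proteases chosen after its values were seen, rose from 77.3, 66.7 and 56.9 CPM to 365, 327 and 371 CPM.

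Most of the tested regulators of the epithelial state were called higher as well. Of 18 tested 13 were called higher and 1, Gata3, lower (median 2.23; 13 and 1 within the shared run). Esrp1, a splicing factor that sets epithelial isoforms, rose from 54, 52.03 and 60.7 CPM to 293, 283 and 233 CPM (2.28 ± 0.13, adjusted p = 2.51e-07). Grhl2, a Grainyhead factor that activates junction genes, rose from 23.9, 24.6 and 28.1 CPM to 118, 135 and 126 CPM (2.30 ± 0.133), and Ovol2, a zinc finger repressor of Zeb1, from 1.11, 0.947 and 1.31 CPM to 5.19, 4.79 and 5.38 CPM (2.18 ± 0.23). None of these overlapped between groups. Larger changes from a lower base were seen in Grhl3, at 0.06, 0.0305 and 0.209 CPM against 3.19, 6.69 and 3.83 CPM, the ETS factor Elf3, at 1.65, 1.62 and 3.35 CPM against 37.3, 57.8 and 37.5 CPM, and Ovol1, at 0.69, 0.458 and 1.41 CPM against 10.7, 12.5 and 9.08 CPM. Foxa1, a pioneer factor of luminal cells, rose from 1.05, 0.916 and 1.57 CPM to 7.38, 9.88 and 8.67 CPM (2.87 ± 0.322).

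Regulators of the mesenchymal state were called lower more often than higher. Of 17 tested 9 were called lower and 2 higher (median −2.05; 8 and 3 within the shared run). The share called higher was near the 11.0% over all genes, of which 12.3% were called lower. Zeb1 stood at 62.6, 101 and 77.5 CPM in short-term and 1.76, 1.81 and 1.85 CPM in long-term starved cells (−5.47 ± 0.594, adjusted p = 2.14e-05), and Zeb2 at 61.6, 68.3 and 57.6 CPM against 2.03, 1.57 and 1.32 CPM (−5.25 ± 0.47, adjusted p = 4.92e-06). In each of the 3 long-term libraries both ZEB genes lay at or under 2.03 CPM. Snai2 fell from 26.03, 17.5 and 25.4 CPM to 1.38, 2.42 and 3.98 CPM (−3.14 ± 0.328) and Snai1 from 34.96, 44.1 and 33 CPM to 9.65, 7.41 and 10.04 CPM (−2.05 ± 0.221). Prrx1, a homeobox gene of mesenchyme, stood at 83.1, 37.5 and 28.2 CPM against 0.108, 0.107 and 0.254 CPM (−8.27 ± 0.579). The Twist genes were not called, with Twist1 at 15.3, 13.9 and 13.7 CPM against 9.43, 8.63 and 9.38 CPM and Twist2 at 11.9, 15.8 and 11.6 CPM against 10.3, 7.99 and 10.3 CPM. Snai3, a weaker relative of Snai1, and Sox9, a factor of progenitor cells, were the members called higher, named after their values were seen. The call of Sox9 was lost without short-term replicate 3 (0.89) or long-term replicate 2 (0.98), which left 1 member higher.

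ZEB and SNAIL proteins bind the E-box CACCTG, or CAGGTG on the other strand, and promoters were therefore searched for both. RefSeq promoters (build GRCm38.p6, 250 bases before to 50 after the start) were at hand for 59 of the 107 genes of the 6 epithelial lists, and 32 of these (54.2%) held the motif. Among the members called higher it was 25 of 35 with a promoter (71.4%), in the 3 mesenchymal lists 6 of 29 (20.7%) of 50 genes, among genes tested 1924 of 10790 (17.8%), and among all promoters 6640 of 32851 (20.2%). A match describes the sequence and is neither a bound site nor a cause. Only examples follow, so that other genes with 2 or more copies, such as Grhl3, and risen genes without the motif, such as Tmprss2 and Ovol2, are not shown. Chosen among genes that rose and hold 2 or more copies, with the motif on either strand in capitals, are Epcam at chr17:87635729-87636028 (plus strand), Crb3 at chr17:57061951-57062250 (plus strand), Ap1m2 at chr9:21312284-21312583 (minus strand), Rab25 at chr3:88548230-88548529 (minus strand) and Spint2 at chr7:29281928-29282227 (minus strand), and for contrast Vim at chr2:13574061-13574360 (plus strand), which holds none.
Epcam: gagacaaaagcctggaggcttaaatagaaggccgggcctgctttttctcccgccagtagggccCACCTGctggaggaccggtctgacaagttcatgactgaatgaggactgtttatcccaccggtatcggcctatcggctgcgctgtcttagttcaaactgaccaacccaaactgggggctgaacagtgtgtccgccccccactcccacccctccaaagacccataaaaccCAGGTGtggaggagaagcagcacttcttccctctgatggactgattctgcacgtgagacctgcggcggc
Crb3: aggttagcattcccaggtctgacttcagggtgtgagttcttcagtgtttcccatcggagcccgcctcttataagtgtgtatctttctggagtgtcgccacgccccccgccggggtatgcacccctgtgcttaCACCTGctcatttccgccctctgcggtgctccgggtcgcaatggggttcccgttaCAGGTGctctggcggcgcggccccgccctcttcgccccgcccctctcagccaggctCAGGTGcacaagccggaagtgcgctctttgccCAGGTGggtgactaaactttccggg
Ap1m2: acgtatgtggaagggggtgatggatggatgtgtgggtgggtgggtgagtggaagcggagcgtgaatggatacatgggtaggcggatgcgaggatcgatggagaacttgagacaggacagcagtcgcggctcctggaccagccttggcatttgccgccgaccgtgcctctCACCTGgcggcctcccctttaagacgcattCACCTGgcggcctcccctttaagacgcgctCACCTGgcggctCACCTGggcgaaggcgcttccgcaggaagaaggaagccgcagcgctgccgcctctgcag
Rab25: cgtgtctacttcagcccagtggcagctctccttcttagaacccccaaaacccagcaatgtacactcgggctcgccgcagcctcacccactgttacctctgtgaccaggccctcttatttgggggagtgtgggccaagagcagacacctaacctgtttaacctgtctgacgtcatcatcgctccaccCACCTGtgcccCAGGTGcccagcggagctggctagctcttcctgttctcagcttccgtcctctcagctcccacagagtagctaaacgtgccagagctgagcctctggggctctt
Spint2: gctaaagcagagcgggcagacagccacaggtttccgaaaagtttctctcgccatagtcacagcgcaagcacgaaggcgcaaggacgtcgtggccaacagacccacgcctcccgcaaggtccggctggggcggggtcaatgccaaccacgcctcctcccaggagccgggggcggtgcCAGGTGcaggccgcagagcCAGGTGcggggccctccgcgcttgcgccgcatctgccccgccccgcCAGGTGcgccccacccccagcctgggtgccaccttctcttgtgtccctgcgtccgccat
Vim: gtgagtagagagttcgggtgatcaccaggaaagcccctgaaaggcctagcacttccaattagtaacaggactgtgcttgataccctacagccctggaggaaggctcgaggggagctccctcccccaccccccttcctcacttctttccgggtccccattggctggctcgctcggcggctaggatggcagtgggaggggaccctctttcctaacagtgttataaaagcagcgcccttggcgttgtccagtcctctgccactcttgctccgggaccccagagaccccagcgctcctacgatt

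Most of the tested structural genes of mesenchymal cells were called lower as well. Of 13 tested 10 were called lower and none higher (median −3.18, or −3.18 with 1 gene at its bound), with 10 and 0 within the shared run. At an unadjusted p under 0.05 edgeR had 1 higher, and limma-voom and DESeq2 called 0 higher. Itgb3, the beta subunit of a vitronectin receptor, stood at 19.1, 33.7 and 12.4 CPM in short-term cells and had no read in any long-term library, at least 268-fold lower. Pdpn, the podoplanin gene, went from 66.3, 45.2 and 30.8 CPM to 0, 0 and 0.177 CPM. Cdh2, which encodes N-cadherin, fell from 728, 639 and 502 CPM to 106, 35.4 and 65.5 CPM (−3.18 ± 0.649, adjusted p = 0.00186), the reverse of Cdh1. Fibronectin was an exception in level though not in direction. Fn1 stood at 54583, 62112 and 31048 CPM against 19655, 18389 and 27412 CPM (−1.17 ± 0.277, adjusted p = 0.00453), and with 1867 RPKM it stayed far above Vim after 12 weeks. The call of Fn1 was lost without short-term replicate 2 (−0.97).

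Contractile and actin-binding genes were lower as well where they were called. Of 15 tested 9 were called lower and none higher (median −1.40; 9 and 0 within the shared run). By edgeR 0 were higher at an unadjusted p under 0.05, and by limma-voom and DESeq2 0 were called higher. Acta2, smooth muscle actin, stood at 5.01, 53.9 and 25.6 CPM against 0, 0 and 0.0507 CPM, a ratio of 1589.5 (counting interval 439.6 to 13131). Myl9, a myosin light chain, stood at 5.46, 26.1 and 14.6 CPM against 0.027, 0 and 0.0507 CPM, a ratio of 581 (counting interval 198 to 2819). In both genes the long-term libraries held at most 3 counts each, and only the direction is firm. The ratio for Acta2 was 911 without short-term replicate 2 and at least 347 without long-term replicate 3, and that for Myl9 was 1140 without long-term replicate 3. Tagln, an actin-bundling protein of smooth muscle, fell from 1.95, 10.8 and 5.26 CPM to 0.054, 0.107 and 0.127 CPM.

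Collagen genes hold much of the matrix that mesenchymal cells secrete. Of 14 interstitial collagen genes 12 were called lower and none higher (median −7.07; 11 and 0 within the shared run, with a median of −6.32). Members higher at an unadjusted p under 0.05 numbered 0 by edgeR, and limma-voom and DESeq2 called 0 higher. Col1a1 stood at 531, 2320.1 and 1460.1 CPM in short-term and 0.675, 0.533 and 3.04 CPM in long-term starved cells (−9.97 ± 0.946, adjusted p = 7.7e-06). Col3a1, the chain of type III collagen, stood at 18.4, 265 and 38.3 CPM against 0.027, 0.0799 and 0.177 CPM. The type V chains Col5a1 and Col5a3, which nucleate collagen fibrils, were among the 5 lowest fold changes of the genes above an average log2 CPM of 1.3, with Col5a1 at 2057, 2999.6 and 1021 CPM against 0, 0.373 and 1.45 CPM and Col5a3 at 25.3, 559.9 and 285 CPM against 0, 0.133 and 0.101 CPM. Short-term libraries varied widely in Col3a1 and Col5a3, yet each lay above every long-term library. Col1a2, the other chain of type I collagen, was not called, at 0.51, 2.595 and 3.69 CPM against 0.486, 0.639 and 0.811 CPM (−1.81 ± 0.701, adjusted p = 0.0527). It was close to the threshold and passed within the shared run (−2.47, adjusted p = 0.00579), without short-term replicate 1 (−2.28, adjusted p = 0.00836), without Ctsd-deficient short-term replicate 1 (adjusted p = 0.0486) or 3 (adjusted p = 0.036), by DESeq2 (adjusted p = 0.0383) and with no filter on low counts (adjusted p = 0.0242). Among the alternatives where Col1a2 did not pass were limma-voom (−1.44, adjusted p = 0.141), leaving out short-term replicate 3 (−1.26, adjusted p = 0.191) and the replicate number as a block (adjusted p = 0.0837). Col8a1, a network collagen named after its values were seen, stayed high at 652, 898 and 364 CPM against 753, 720.4 and 982 CPM and was not called either.

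Most of the tested enzymes that cut, hydroxylate and cross-link collagen were called too. Of 16 tested 11 were called lower and 2 higher (median −2.35; 11 and 1 within the shared run). The share called higher was near the 11.0% over all genes, of which 12.3% were called lower. The higher count was 1 without short-term replicate 1 or 3 or long-term replicate 2 or 3. Lox, lysyl oxidase, fell from 1320.0, 1065 and 463 CPM to 0.324, 0.107 and 1.27 CPM (−10.68 ± 0.685), its relative Loxl1 from 219.8, 317 and 156 CPM to 0.027, 0.0799 and 0.431 CPM (−10.27 ± 0.529), and the procollagen protease Adamts2 from 267, 161 and 38.9 CPM to 0, 0 and 0.254 CPM. Loxl4, of the same family and chosen after its values were seen, rose from 35.4, 30.8 and 52.7 CPM to 1278, 1136 and 1325 CPM (4.97 ± 0.311, adjusted p = 4.06e-07). Per length, Loxl4 took the place of Lox as the more abundant of the pair, since Lox stood at 199 and Loxl4 at 9.41 RPKM after 10 days, and Lox at 0.118 and Loxl4 at 296 RPKM after 12 weeks.

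Basement membrane genes were called in both directions. Of 22 tested 10 were called lower and 5 higher (median −0.90; 9 and 3 within the shared run). The higher count was 3 without short-term replicate 1 or 2 or long-term replicate 1 or 2, and 2 without long-term replicate 3. Nid1 and Nid2, the nidogens that join laminin to type IV collagen, went from 506, 717 and 539 CPM to 0.703, 0.693 and 3.65 CPM and from 31.7, 27.4 and 18.6 CPM to 0.027, 0.213 and 0.177 CPM. Col7a1, the anchoring fibril collagen of epithelia, fell as well, from 458, 2487 and 1171 CPM to 50.3, 23.1 and 50.02 CPM (−5.06 ± 0.545). Lamb3, a laminin chain of epithelial basement membranes chosen after its values were seen, rose from 39.97, 63.5 and 99.1 CPM to 493, 440.5 and 412 CPM (2.73 ± 0.374). Itgb4, the hemidesmosome integrin, rose from 732, 513 and 579 CPM to 2255, 1996 and 2467 CPM (1.88 ± 0.155), also named after its values were seen. Of 15 integrins outside the mesenchymal list 2 were called higher and 4 lower (median −0.69; 2 and 5 within the shared run, and 4 higher without short-term replicate 3), with Itga7, a laminin receptor of muscle, falling from 97.7, 145 and 105 CPM to 8.05, 4.63 and 4.08 CPM, Itga1, a collagen receptor, at 10.1, 8.55 and 4.74 CPM against 0.432, 0.346 and 0.33 CPM, and Itga4 at 2.55, 1.86 and 1.57 CPM against 0, 0.0533 and 0.0761 CPM. These integrin counts stand beside 11.0% called higher and 12.3% lower over all genes.

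Matricellular and elastic fiber genes and matrix proteases were lower as well where they were called. Of 16 matricellular genes 10 were called lower and none higher (median −3.55; 9 and 1 within the shared run), with 1 higher at an unadjusted p under 0.05 and 0 called higher by limma-voom and DESeq2 (1 higher without long-term replicate 3). Sparc, a collagen-binding glycoprotein, fell from 3102, 5502 and 3154 CPM to 49.3, 36.7 and 32.6 CPM (−6.63 ± 0.452, adjusted p = 7.7e-07). Postn, periostin, went from 295, 319.5 and 23.03 CPM to 0.189, 0.213 and 0.101 CPM and Fbln5, an elastic fiber protein, from 112, 128 and 60.2 CPM to 0.459, 0.586 and 0.989 CPM. Short-term replicate 3 was far below its group in Postn, yet above all long-term libraries. Of 22 matrix proteases and inhibitors 11 were called lower and none higher (median −1.44; 12 and 0 within the shared run), with 1 higher at an unadjusted p under 0.05, 0 called higher by limma-voom and 1 by DESeq2 (1 higher without Ctsd-deficient long-term replicate 1 or 2). The aggrecan-cutting proteases Adamts5 and Adamts4 fell from 186, 108 and 63.5 CPM to 1.22, 0.4 and 0.659 CPM and from 9.595, 13.2 and 16.6 CPM to 0.27, 0.32 and 0.558 CPM.

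**Figure D3:**
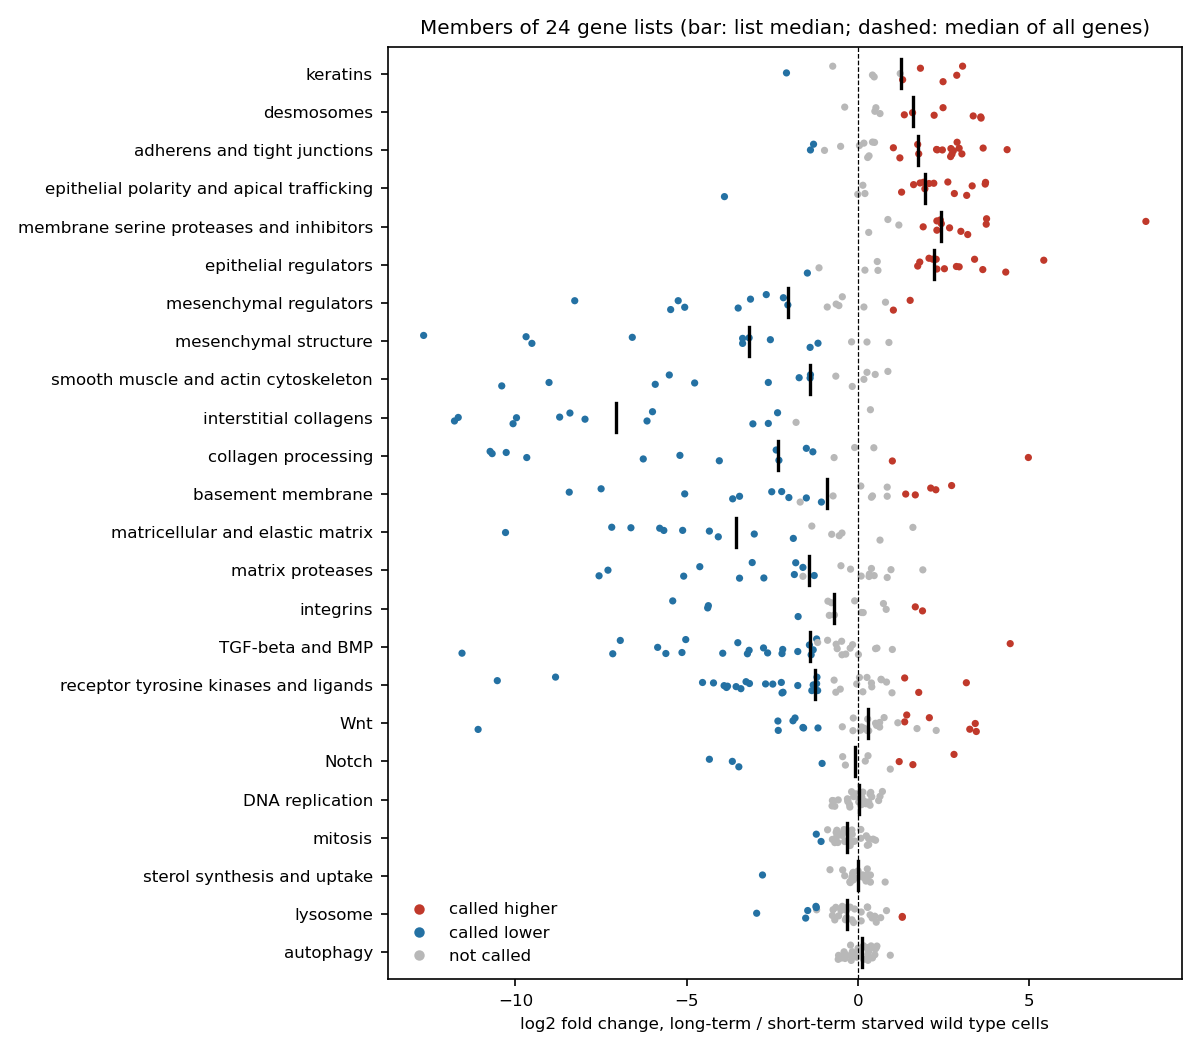
Log2 fold change of long-term against short-term starved wild type cells (horizontal axis) for every tested member of 24 gene lists, 1 point per gene and a bar at each list's median, with called genes coloured. Medians run from −7.07 for interstitial collagens to 2.41 for membrane serine proteases, while those of replication, sterol synthesis and autophagy were 0.03, −0.00 and 0.10 beside 0.00 over all genes.

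Signaling genes were next, and their part in the shift was not tested. Of 34 genes of the TGF-beta and BMP pathways 20 were called lower and 1 higher (median −1.40; 19 and 1 within the shared run, with 2 higher without short-term replicate 1 and 0 without long-term replicate 3). All 3 TGF-beta ligands fell. Tgfb1 stood at 41.8, 54.5 and 33.1 CPM against 4.08, 3.92 and 6.24 CPM (−3.18 ± 0.24, adjusted p = 1.55e-06), Tgfb2 at 104, 55.5 and 34.6 CPM against 1.05, 1.998 and 0.938 CPM (−5.61 ± 0.501), and Tgfb3 at 394, 315 and 104 CPM against 26.02, 26.7 and 18.9 CPM (−3.51 ± 0.506). Fstl1, a secreted BMP antagonist, went from 1608, 2229.5 and 1059 CPM to 0.108, 0.133 and 1.34 CPM, among the 5 lowest fold changes of the genes above an average log2 CPM of 1.3. Ltbp2, a matrix protein related to those that store latent TGF-beta, fell from 1812, 3571 and 946 CPM to 28.8, 13.2 and 9.43 CPM (−6.94 ± 0.707), and Grem1, a BMP antagonist, from 6.81, 23.6 and 19.4 CPM to 0.027, 0.0266 and 0.279 CPM.

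Growth factor receptors and their ligands were mostly lower where they were called. Of 38 receptor tyrosine kinases and ligands 22 were called lower and 3 higher (median −1.26; 19 and 4 within the shared run). Pdgfrb, a PDGF receptor of fibroblasts and pericytes, went from 552, 694 and 159.7 CPM to 0.027, 0.213 and 0.684 CPM. Igf1, a growth factor, stood at 23.1, 23.8 and 5.31 CPM against 0, 0.0533 and 0.0507 CPM, a ratio of 479 (counting interval 187 to 1759.7), and Fgf2 at 35.7, 54.7 and 16.8 CPM against 1.51, 0.986 and 2.08 CPM. Erbb3, a neuregulin receptor of luminal epithelium named after its values were seen, rose from 40.8, 29.6 and 43.4 CPM to 325, 355 and 336 CPM (3.16 ± 0.2, adjusted p = 4.46e-07). Of 5 IGF binding protein genes 1 was called higher and 2 lower (median −2.49; 1 and 2 within the shared run, a median of 0.38 without short-term replicate 1, and 2 higher without short-term replicate 2). Igfbp3 rose from 10.6, 8.79 and 12.1 CPM to 127, 284 and 331 CPM (4.55 ± 0.359) and Igfbp4 fell from 1104, 697 and 518 CPM to 65.96, 41 and 30.7 CPM (−4.07 ± 0.379). Igfbp2 rested largely on short-term replicate 1, at 20, 1.89 and 0.523 CPM against 0.054, 0 and 0.0507 CPM, with a fitted log2 fold change of −7.60 that was −4.98 without it.

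Wnt and Notch genes moved in both directions, with counts to be set beside 11.0% called higher and 12.3% lower over all genes. Of 31 Wnt genes 6 were called higher and 8 lower (median 0.28; 10 and 7 within the shared run). Dkk2, a Wnt antagonist, went from 90.7, 109 and 109.8 CPM to 0.027, 0.0266 and 0.0761 CPM, a ratio of 2356 (counting interval 1009 to 7258) that was 3850 without long-term replicate 3. The ligand Wnt10a rose from 3.298, 7.94 and 11.2 CPM to 127, 71.9 and 46.6 CPM (3.45 ± 0.497), and Rnf43, an E3 ligase that removes Wnt receptors, from 1.41, 0.672 and 0.811 CPM to 9.56, 12.9 and 8.52 CPM (3.42 ± 0.286). Of 12 Notch genes 3 were called higher and 4 lower (median −0.08; 3 and 3 within the shared run). The ligand Jag1 fell from 201, 359 and 244 CPM to 21.3, 21.8 and 28.98 CPM (−3.48 ± 0.264, adjusted p = 1.56e-06), as did the Notch targets Hey1, from 6.42, 1.44 and 1.91 CPM to 0.135, 0.186 and 0.152 CPM, and Hey2, from 2.67, 1.92 and 2.88 CPM to 0.189, 0.16 and 0.228 CPM. Notch3, a receptor named after its values were seen, rose from 94.8, 51.5 and 50.6 CPM to 567, 421 and 384 CPM (2.80 ± 0.328).

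Few proliferation genes were called, beside 11.0% called higher and 12.3% lower over all genes. Of 32 DNA replication genes none was called higher or lower by edgeR (median 0.03, or 0.26 within the shared run), 2 were higher and 3 lower at an unadjusted p under 0.05, and limma-voom and DESeq2 called 0 in either direction. Without short-term replicate 2 there were 2 lower. Of 32 mitosis genes 2 were called lower (median −0.32) and 0 within the shared run (median 0.06), and 0 were higher at an unadjusted p under 0.05 or called higher by limma-voom or DESeq2. Long-term replicate 3, outside the shared run, stood below the rest in both lists. Replication genes summed to 3359.9, 2545 and 3820.0 CPM against 4300.0, 3602 and 2172 CPM and mitosis genes to 6118, 3741 and 5725 CPM against 5545, 4896 and 2460.1 CPM. The members called lower were the spindle checkpoint kinases Bub1, at 62.3, 39.9 and 73.2 CPM against 35.8, 29.5 and 17.6 CPM, and Bub1b, at 119, 79.7 and 119.6 CPM against 57.1, 51.2 and 28.5 CPM. Both calls were lost without long-term replicate 3, the lowest library, with log2 fold changes of −0.84 and −0.97, and the call of Bub1 was also lost without short-term replicate 3 (−0.88). The proliferation marker Mki67 stood at 737, 476 and 626 CPM against 598, 548 and 238 CPM and topoisomerase Top2a at 1118, 594 and 933 CPM against 738, 631 and 334 CPM, neither called.

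Among 24 cell cycle inhibitors, cyclins and p53 targets 3 were called higher and 1 lower, beside 11.0% and 12.3% over all genes (median −0.03; 4 and 2 within the shared run, and 2 lower without long-term replicate 3). D cyclins, which start the cycle, moved in opposite directions. Ccnd2 fell from 528, 376 and 367 CPM to 39.6, 21.8 and 35.1 CPM (−3.72 ± 0.467, adjusted p = 6.3e-05), and Ccnd1 rose from 408, 322 and 562 CPM to 1014, 841 and 914 CPM (1.10 ± 0.202, adjusted p = 0.000926), a call lost without short-term replicate 2 (0.93). The inhibitor gene Cdkn2a rose from 4.38, 1.34 and 1.204 CPM to 9.19, 10.8 and 10.01 CPM (2.12 ± 0.374), and Cdkn1c, which encodes p57, from 1.05, 1.099 and 1.12 CPM to 1.89, 4.39 and 6.36 CPM. Cdkn1a, which encodes p21, was level at 321, 240.5 and 408 CPM against 250.2, 322 and 411 CPM and was not called (0.02 ± 0.213).

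Genes of lipid and sugar metabolism came next, with counts to be set beside 11.0% called higher and 12.3% lower over all genes. Of 24 genes of sterol synthesis and uptake 1 was called lower and none higher (median −0.00; 1 and 1 within the shared run, with 1 higher without short-term replicate 1 and 2 lower without long-term replicate 1). At an unadjusted p under 0.05 there was 1 higher, and limma-voom and DESeq2 called 0 higher. Of 15 fatty acid synthesis genes 1 was called higher and 2 lower (median −0.53; 1 and 2 within the shared run, with a median of −0.33). With no minimum fold 2 were higher and 8 lower, to be set beside 3494 higher and 3547 lower of all 15178 genes under that threshold. The fatty acid genes included the elongase Elovl6 and the desaturase Fads1, called lower (−1.39 ± 0.215 and −1.18 ± 0.18), and Acacb, an acetyl-CoA carboxylase of mitochondria, called higher (1.95 ± 0.3). Of 22 glycolysis and hypoxia genes 1 was higher and 3 lower, the latter a share near that over all genes (median −0.02; 1 and 4 within the shared run, and 0 higher without short-term or long-term replicate 2). The lactate exporter Slc16a3 fell from 5.43, 4.92 and 3.95 CPM to 0.108, 0.4 and 0.254 CPM, the prolyl hydroxylase Egln3 from 3.24, 2.26 and 5.37 CPM to 0.054, 0.107 and 0.0761 CPM, and the phosphofructokinase Pfkp from 82.2, 79.5 and 64.9 CPM to 23.1, 28.3 and 20.8 CPM.

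In the lysosome list 2 of 36 genes were called higher and 5 lower, the latter a share near that over all genes (median −0.33; 1 and 6 within the shared run). Ctsz, another cathepsin, fell from 187, 202 and 152 CPM to 28.3, 23.1 and 17.9 CPM (−2.96 ± 0.203, adjusted p = 7.9e-07), the protease Lgmn from 182, 159 and 99.1 CPM to 55.3, 47.6 and 48.96 CPM, and the acid lipase Lipa from 79.2, 68.6 and 50.5 CPM to 24.4, 21.2 and 25.9 CPM. Lamp1, a lysosomal membrane protein, was not called, at 983, 818 and 635 CPM against 997, 1007 and 1222 CPM. Of 32 autophagy genes none was called by edgeR in either direction (median 0.10), limma-voom and DESeq2 called 0, and at an unadjusted p under 0.05 there were 10 higher and 7 lower, all by less than the fold threshold. Sqstm1, the autophagy receptor p62, stood at 626, 671 and 523 CPM against 519, 591 and 830.4 CPM (0.09 ± 0.169). Of 24 amino acid response genes 3 were higher, a share near the 11.0% over all genes, and 1 lower, where the share over all genes was 12.3% (median 0.00; 1 and 4 within the shared run; 1 higher without short-term replicate 1 or 2, 5 without short-term replicate 3, and 3 lower without long-term replicate 3). They included the stress regulator Nupr1 at 88.6, 215 and 138 CPM against 430.2, 575 and 628 CPM (1.89 ± 0.302) and the glutamine transporter Slc1a5 at 91.1, 119 and 125 CPM against 61.4, 36.8 and 46.2 CPM (−1.22 ± 0.179). The stress factor Atf3 passed at 1.11 ± 0.42. Its call was lost within the shared run (0.30, adjusted p = 0.245), in the 6 wild type samples alone (adjusted p = 0.0837), without short-term replicate 1 (0.80), short-term replicate 2 (1.19, adjusted p = 0.0779) or long-term replicate 3 (0.60), when any 1 of 4 Ctsd-deficient libraries was left out, and by limma-voom (adjusted p = 0.0681). Of 18 NRF2 targets 3 were higher and none lower by edgeR (median 0.38; 3 and 0 within the shared run, and 6 higher without long-term replicate 1), with 1 lower at an unadjusted p under 0.05 and 0 called lower by limma-voom and DESeq2. The higher ones included Aldh3a1, an aldehyde dehydrogenase, at 30.4, 23.2 and 8.79 CPM against 172, 341 and 325 CPM, and Gsr, glutathione reductase, at 40.3, 75.5 and 75.2 CPM against 168, 191 and 132 CPM.

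Secreted factors moved in both directions. Of 21 inflammatory signal genes 6 were called higher and 4 lower (median −0.11; 6 and 6 within the shared run). The stromal chemokine Cxcl12 fell from 1100.1, 629.5 and 337 CPM to 8.92, 3.94 and 5.32 CPM (−6.83 ± 0.571, adjusted p = 2.98e-06). Ccl2 had no read in any long-term library against 1, 9 and 44 counts in short-term ones, at least 5.99-fold lower but only 1.88-fold without short-term replicate 3. Ccl20, an epithelial chemokine, stood at 0.06, 0 and 0.0262 CPM against 1, 3.09 and 3.12 CPM, a ratio of 84.2 (counting interval 28.5 to 411) that was 172 without short-term replicate 1. Of 29 interferon response and antigen presentation genes 2 were higher and 3 lower, beside 11.0% and 12.3% over all genes (median −0.33; 4 and 6 within the shared run). Without short-term replicate 1 there were 4 higher, without short-term replicate 3 there were 1 higher and 5 lower, and without long-term replicate 1 or 3 there was 1 higher. Oas1a, an antiviral synthetase, stood at 0.03, 0 and 0 CPM against 2.76, 1.78 and 5.55 CPM, a ratio of 355 (counting interval 63.4 to 14059.5). Its ratio was 225 without short-term replicate 3 and 236 without long-term replicate 3, and at least 36.7 without short-term replicate 1. Psmb8, an immunoproteasome subunit, fell from 8.996, 8.86 and 6.804 CPM to 0.73, 0.506 and 0.862 CPM.

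Of 14 genes for secreted epithelial and milk proteins 6 were called higher and 1 lower (median 0.82; 5 and 1 within the shared run). Ltf, lactoferrin, had 0, 0 and 2 counts in short-term and 398, 1548 and 190 in long-term libraries, a ratio of 977 (counting interval 270.2 to 8075) that was 401 without long-term replicate 2 and at least 207 without short-term replicate 3. The mucin Muc15 rose from 0.48, 0.122 and 0 CPM to 1.84, 3.81 and 1.901 CPM, and transferrin, Trf, stood at 1.14, 2.595 and 0.628 CPM against 0, 0.0266 and 0.0507 CPM, a ratio of 53.5 (counting interval 17.97 to 263). The Trf ratio was 32.9 without short-term replicate 2 and 105 without long-term replicate 3. Of 13 luminal lineage genes 3 were higher and 3 lower (median 0.56; 3 and 3 within the shared run; 6 higher without short-term replicate 2 and 5 without Ctsd-deficient long-term replicate 2). In the retinoid pathway 3 of 12 were higher and 4 lower (median −0.02; 4 and 3 within the shared run). Stra6, the receptor for retinol uptake, rose from 0.06, 0.153 and 0.0262 CPM to 10.9, 17.3 and 3.07 CPM, and Rdh10, a retinol dehydrogenase, from 41.1, 34.9 and 33.4 CPM to 105, 127 and 124 CPM (1.70 ± 0.14). Aldh1a3, which makes retinoic acid, was lower at 13.4, 30.6 and 5.44 CPM against 3.97, 5.22 and 2.97 CPM, a call lost without short-term replicate 2 (−1.21, adjusted p = 0.0736), and the count of lower genes in the list was then 2.

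Of 35 semaphorins, ephrins and other guidance genes 4 were called higher and 13 lower (median −0.52; 8 and 12 within the shared run, and 8 higher without short-term replicate 1). The share called higher was near the 11.0% over all genes, of which 12.3% were called lower. Sema7a, a membrane-bound semaphorin, fell from 55.9, 305 and 81.7 CPM to 3.05, 1.15 and 5.65 CPM, its receptor family member Plxnd1 from 24.8, 25.01 and 14.7 CPM to 1.14, 0.879 and 0.786 CPM, and the Slit receptor Robo2 from 4.68, 9.04 and 3.79 CPM to 0.108, 0 and 0.152 CPM. Of 16 immediate early genes 1 was higher and 2 lower, the latter a share near the 12.3% over all genes (median −0.37; 0 and 3 within the shared run; 4 lower without short-term replicate 3, 1 lower without long-term replicate 1 or 2, and 0 higher without long-term replicate 3), with the AP-1 subunit Jun at 125, 96.8 and 136 CPM against 19.4, 16.3 and 23.3 CPM (−2.60 ± 0.365, adjusted p = 0.000142). Of 10 imprinted genes 2 were higher and 3 lower (median −0.56; 2 and 2 within the shared run). Peg3, a paternally expressed zinc finger gene, fell from 22.6, 10.7 and 20.8 CPM to 0.135, 0.639 and 1.34 CPM, H19, a long noncoding RNA, stood at 4.05, 3.36 and 0.759 CPM against 0, 0 and 0.0254 CPM, a ratio of 299 (counting interval 53.3 to 11869) (at least 33.6 without long-term replicate 3), and Plagl1 rose from 1.14, 0.641 and 0.419 CPM to 4.13, 4.37 and 3.47 CPM. Of the X and Y chromosome checks only Xist passed the filter, and it was not called, at 376, 396 and 405 CPM against 530.3, 485 and 479 CPM.

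At the far ends of the table, among genes above an average log2 CPM of 1.3, stood the 5 highest and 5 lowest. The highest were Gm21698, Gm21671, Gm21680, Gm5862 and Gm1979, near-identical copies on chromosome 5 that can share reads, so that their single levels are uncertain. None had a read in a short-term library, and Gm21698 reached 7.35, 31.8 and 35.6 CPM in long-term starved cells, at least 272-fold higher. Long-term replicate 1 was the lowest of its group in all 5. The lowest were Itgb3, Col5a3, Col5a1, Fstl1 and Masp1, of which the lectin pathway protease Masp1 fell from 398, 334 and 201 CPM to 0.027, 0.0533 and 0.304 CPM.

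Ctsd-deficient cells are given only to show where wild type cells differed. In Ctsd-deficient cells, tested in the same fit over the same times, 225 genes were called (1.48%), 169 higher and 56 lower, and 55 and 25 of these were called in the same direction in wild type cells. Of those higher 59 were called lower in wild type cells, and of those lower 12 were called higher. The difference between the 2 changes passed the same thresholds for 2906 genes (19.1%), 1232 higher and 1674 lower. Of the genes called higher in wild type cells 1069 were among the former, and of those called lower 1378 were among the latter. Median log2 fold changes in Ctsd-deficient cells were −0.28 for membrane serine proteases, −0.34 for desmosomes, 0.01 for mesenchymal structure and 0.78 for interstitial collagens, and −0.00 over all genes. Each genotype is a single line, so that genotype and line cannot be told apart.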

How the data were processed

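Total RNA of cells was sequenced on Illumina instruments. The authors aligned the reads to mm10 with STAR and deposited counts per gene for each library, of which column 4 (reads matching the reverse strand) was used here. It held 97.09% or more of the reads assigned by strand in every wild type library. Of 45706 gene identifiers 45143 were found in GENCODE M21, which gave symbols, positions and exon lengths for RPKM. The 8 tumors were not used here.

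All 12 cell libraries were fitted together with a term per group in edgeR 4.0.16 (R 4.3.3). Genes passing filterByExpr were scaled by TMM and tested by the quasi-likelihood F-test, two-sided, with p-values adjusted over all 15178 genes by Benjamini-Hochberg. Values after ± are approximate standard errors, the absolute log2 fold change divided by the square root of the F statistic. For genes with almost no reads in a group they do not show how well the size is determined. The same fit tested the difference between the changes of the genotypes. limma-voom (limma 3.58.1), DESeq2 1.42.0, other scalings, filters and thresholds, the shared run, the replicate number as a block and leaving out each library were alternatives.

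Gene lists and members were chosen with earlier results of these data known, from general knowledge, and were described by counts and medians without a set test. Named were the 5 highest and the 5 lowest log2 fold changes among called genes above an average log2 CPM of 1.3 without overlap between groups, up to 3 called members with the largest change per list, 41 genes chosen whatever their values, and the most abundant gene of each marker list. Some members of the lists are not reported here by name. Further genes are said to be chosen after their values were seen where they are named.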

Additional observations from a re-analysis of the deposited data

Results flagged for a closer look

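The change over long-term starvation was more positive in wild type than in Ctsd-deficient cells for 1232 genes and more negative for 1674, by the test of the difference between the 2 changes. Groups of 3 libraries were too small for a test of single libraries standing apart. Each value below is the log2 fold change of wild type cells minus that of Ctsd-deficient cells for a gene named in the text that passed this test. Most of these genes were named for a large wild type change, which is part of the difference. In Ctsd-deficient cells only 225 genes (1.48%) were called. Passing this test and its sign are therefore no separate evidence for the genes named. Where a group had almost no reads, the sign is read and the size is not determined.

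Among keratins, desmosome and junction genes the difference was 3.35 for Krt7, 2.14 for Krt8, 2.46 for Krt18, 3.29 for Krt19, 2.36 for Krt80, 3.37 for Dsp, 3.93 for Dsg3, 3.25 for Ppl, 3.54 for Evpl, 2.89 for Cdh1, 2.41 for Epcam, 3.65 for Ocln, 2.84 for Cldn3 and 4.47 for Tjp3. In polarity, sorting and surface protease genes it was 3.68 for Crb3, 3.71 for Rab17, 3.60 for Rab25, 3.06 for Ap1m2, −3.41 for Sytl2, 5.11 for Tmprss2, 5.45 for Tmprss4, 2.73 for Tmprss11e and 2.91 for Spint2. Epithelial regulators stood at 2.68 for Esrp1, 2.64 for Grhl2, 3.93 for Grhl3, 2.66 for Ovol1, 3.07 for Ovol2, 4.06 for Elf3, 2.26 for Foxa1 and −1.53 for Gata3. All of these but Sytl2 and Gata3 had a positive difference.

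Mesenchymal regulators and filaments went the other way, with −9.58 for Zeb1, −6.31 for Zeb2, −1.32 for Snai1, −2.56 for Snai2, −11.34 for Prrx1, −15.21 for Vim, −3.56 for Cdh2, −12.51 for Itgb3, −8.91 for Pdpn, −10.26 for Myl9 and −5.95 for Tagln, while Snai3 had 1.65. Matrix genes stood at −9.98 for Col1a1, −15.39 for Col5a1, −14.28 for Col5a3, −4.77 for Col7a1, −9.93 for Loxl1, 4.42 for Loxl4, −8.20 for Nid1, −11.23 for Nid2, 2.59 for Lamb3, −5.93 for Sparc, −8.52 for Postn, −5.98 for Fbln5, −4.47 for Adamts4, −5.52 for Adamts5 and −11.69 for Masp1. Integrins and adhesion genes had −5.39 for Itga1, −7.98 for Itga4, −3.54 for Itga7, 1.80 for Itgb4, −3.27 for Mcam and −4.36 for Ncam1. Of the matrix and integrin genes, only Loxl4, Lamb3 and Itgb4 had a positive difference.

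Signals differed as well, with −3.35 for Tgfb1, −5.20 for Tgfb2, −4.25 for Tgfb3, −7.28 for Ltbp2, −17.76 for Pdgfrb, −10.08 for Igf1, −5.72 for Igfbp4, −7.51 for Fgf2, −6.83 for Flt1, 3.24 for Csf1r, 3.61 for Erbb3, 3.65 for Wnt10a, 3.56 for Rnf43, −3.34 for Jag1, −7.29 for Hey1, −3.63 for Hey2, 2.65 for Notch3, −4.60 for Sema7a and −5.74 for Plxnd1. Secreted and immune genes had −8.88 for Ccl2, 6.12 for Ccl20, −7.13 for Cxcl12, 9.51 for Oas1a, −4.65 for Psmb8 and 8.93 for Ltf. Cell cycle genes had 1.10 for Ccnd1, −3.60 for Ccnd2, 2.77 for Cdkn2a, −1.38 for Bub1, −1.53 for Bub1b and −1.24 for Top2a. In metabolism and stress the values were −1.68 for Elovl6, −1.42 for Fads1, −7.19 for Egln3, −1.67 for Pfkp, −3.37 for Ctsz, −1.21 for Lgmn, −1.73 for Lipa, 1.41 for Lipe, −1.19 for Slc1a5, 1.85 for Nupr1, 1.71 for Atf3, 1.23 for Gsr, −1.60 for Jun, 1.38 for Rdh10, 8.77 for Stra6, −4.67 for Peg3 and −7.87 for H19. Among the chromosome 5 copies Gm1979 had 8.08, Gm21680 7.70 and Gm5862 7.31, and among the genes named below Msln had 3.92, Anxa1 2.58, Cwh43 5.16, Lrp1 −5.49, Aebp1 −4.27, Hoxa2 −7.00, Hoxa3 −5.56, Hoxa5 −2.46 and Hoxa7 1.68.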

How the results depend on the processing

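Each genotype is 1 cell line, and only 4 of the 6 wild type libraries share a code, read here as the sequencing run. Wild type counts of genes called higher and lower stayed within 1.5 times of 1673 and 1872 except under a filter of at least 10 counts in every sample (973 and 1126), which by construction removes genes that are silent in a group, and with no minimum fold (3494 and 3547), a looser threshold. They were 1470 and 1792 in the 6 wild type samples alone, 1696 and 1829 by limma-voom, 1634 and 1864 by DESeq2, and 1635 and 1833 within the shared run. With library totals in place of TMM they were 1794 and 1735 and the median over all genes 0.07. With 1 library left out the ranges were 1550 to 1763 and 1762 to 1977, and for the difference between genotypes, 1232 and 1674 in all, 1072 to 1344 and 1484 to 1758. That difference could not be fitted with only the 6 wild type samples. With the replicate number as a block the counts were 1705 and 1851, and 1239 and 1675 for the difference. Libraries with the same number had correlations of −0.143, −0.033 and −0.062, none was best with its own number, and no pairing was used. Of 149 called genes named in the text and followed under the alternatives 8 lost the call when some library was left out and 4 under another alternative, and none reversed its direction. Genes that an alternative's filter removed, such as Acta2 under at least 10 counts in every sample, were not counted as having lost the call. Named genes were not followed under the other fold thresholds.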

Other observations

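Further genes, chosen after their values were seen, moved by much at high levels. Msln, the surface glycoprotein mesothelin, rose from 62.2, 156 and 324 CPM to 2533, 2338 and 1834 CPM, the phospholipid-binding annexin gene Anxa1 from 482, 670.5 and 747 CPM to 2511, 2984 and 2254 CPM, and the membrane protein gene Emp1 from 941, 1173 and 916 CPM to 3206, 2281 and 2340.0 CPM. Lrp1, an endocytic receptor, fell from 3595, 5208 and 2370.4 CPM to 117, 135 and 188 CPM, and Aebp1, a collagen-binding protein, from 4858, 1664 and 436 CPM to 78.8, 89.7 and 179.9 CPM. From a low base, Gabrp, a subunit of the GABA-A receptor, rose from 0.6, 0.122 and 0 CPM to 95.8, 136 and 33.4 CPM and Cwh43 from 3.93, 1.802 and 2.43 CPM to 230.1, 218 and 177 CPM. In the Hoxa cluster of positional genes, also chosen after their values were seen, Hoxa3 fell from 9.36, 12.3 and 6.39 CPM to 0.73, 1.62 and 0.482 CPM (−3.30 ± 0.511), with log2 fold changes of −6.57 for Hoxa2, −1.75 for Hoxa5 and −2.59 for Hoxa9, while Hoxa7 rose from 1.11, 1.19 and 1.26 CPM to 4.62, 11.96 and 6.59 CPM (2.70 ± 0.329). Hoxa2 rested on few long-term reads. Its ratio was 111, or 72.9 without long-term replicate 3 and at least 24.4 without long-term replicate 2.

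Over the 9854 genes above an average log2 CPM of 3 the median log2 fold change was −0.00, and the 2 autosomes farthest from it, chosen after their values were seen, were chromosomes 2 and 19. On chromosome 2 the median of 772 genes was −0.47 (−0.02 in Ctsd-deficient cells), with 159 positive, 35 called higher and 122 lower, and the long-term libraries stood at −0.47, −0.49 and −0.38. In windows of 20 Mb along it the medians were −0.78, −0.60, −0.57, −0.62, −0.61, −0.52 and −0.60, and then −0.12, −0.09 and −0.00 in the last 3. On chromosome 19 the median of 362 genes was 0.49 (−0.08 in Ctsd-deficient cells), with 303 positive, 52 called higher and 13 lower, long-term libraries at 0.53, 0.53 and 0.41, and windows at 0.47, 0.46 and 0.52. Single windows stood as far out on other chromosomes, with 2 neighbours on chromosome 3 (−0.52 and −0.84) and 1 each on chromosomes 11 (−0.52), 14 (0.78), 17 (−0.47) and X (0.52). Chromosome 5 stood at 0.28 in wild type and 0.27 in Ctsd-deficient cells. Copy number was not tested, nor was any other cause. The part of these shifts in the fold changes of single genes in these regions, such as Vim and Gata3 on chromosome 2, was not tested either.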
